A study of Rattus norvegicus with 12 samples.

Results

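The genes described here encode the initiation and elongation factors of translation. They were chosen by symbol alone, as every gene whose symbol starts with Eif1 to Eif6 or with Eef1 or Eef2, with pseudogene entries left out. The rule gave 63 of the 30562 genes in the table, of which 12 carried an Eef symbol and 51 an Eif symbol. Bulk RNA was sequenced from cultures of oligodendrocyte precursor cells (OPCs), the glial progenitors that give rise to myelinating oligodendrocytes. The comparison asked how mild hypoxic preconditioning altered such cultures. The cells were shaken off mixed cultures of the cortex of wild-type Sprague-Dawley rat pups at postnatal day 1 to 2, and both groups were grown with FGF-2 and PDGF-AA. Mild-hypo-OPCs (6 libraries) had been kept at 5% FiO2, for 6 hours by the sample labels and for 6 days by the methods of the study, and standard OPCs (6 libraries) were kept in room air. The labels do not say that the 6 libraries of a group were separate cultures and the study's text names 3 biological replicates per group, so p-values measure the spread between these libraries, which may be technical.

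Translation starts when eIF2 brings the initiator tRNA to the small ribosomal subunit, eIF3 holds the pre-initiation complex together, and the eIF4 factors recruit the capped end of the mRNA. The ribosome then adds amino acids with eEF1A, which delivers each charged tRNA, and eEF2, which moves the ribosome on by a codon. Phosphorylation of the eIF2 alpha subunit by stress-activated kinases, and the capture of eIF4E by its binding proteins, are the classical points at which a cell short of oxygen slows protein synthesis. Many mRNAs of the translation machinery begin with a C followed by a run of pyrimidines, the 5′ terminal oligopyrimidine (TOP) motif, and ribosomal protein mRNAs are its best known carriers. In maturing oligodendrocytes, translation capacity is needed for the large output of myelin proteins.

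The start sites of several members that were lower in mild-hypo-OPCs are shown first, because they carry TOP-like words or, in Eif3i, an ETS-type word alone, together with Eif3b, which was not called and carries none. The lines were picked for these words. Eef1e1, Eef1g, Eif4e and Eif5a, also lower, carry no TOP-like word, whereas Eif2s3 and Eif3c, not called, do. Each line is the 30-base window from 15 bases before to 15 bases after the annotated transcript start in RefSeq (GRCr8 assembly, gene strand, 5′ to 3′), an assembly that differs from the mRatBN7.2 build on which the counts were made. Capitals mark the word CTTTT, the word CTTTC, the word CTCTC or the word CTCTT, read on the gene strand and allowed to overlap, and the word CCGGAAG on either strand (CTTCCGG on the other), which is a common core of ETS-family sites.
Eef1a1 (chr8:88225055-88225084, minus strand): tcgccttggacgttCTTTTtcgcaacgggt
Eef1b2 (chr9:72074076-72074105, plus strand): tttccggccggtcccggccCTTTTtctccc
Eif3f (chr1:172369047-172369076, plus strand): tcacgcccttccgttctagcCTCTCTCTTt
Eif3k (chr1:93397473-93397502, minus strand): tCTTTTtCTTCCGGtccttgagtacttagt
Eif3m (chr3:111897179-111897208, minus strand): cgtaacaccgtgtggtaccgctcCTTTTcc
Eif3i (chr5:147226896-147226925, minus strand): cagtcttCTTCCGGtcctactcacattgcc
Eif3b (chr12:19334754-19334783, minus strand): cggaagcagggcggccgagccgggtgagga

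A promoter entry was found by symbol for 58 of the 63 members. A TOP-like word stood in the start window of 11 of these 58 (19%), against 13.2% of 27457 promoters taken once per symbol. Among the 19005 of these that were protein-coding, 12.6% held such a word. Among the members called lower by the test across all genes, 7 of 17 with an entry held such a word, namely Eef1a1, Eef1b2, Eif2a, Eif3f, Eif3k, Eif3m and Eif4a2. Of the 34 members with an entry that were tested and not called, 4 held one. These were Eif1ad, Eif2s3, Eif2s3y and Eif3c. None of the 3 members called higher had a TOP-like word in its window. The word CCGGAAG was sought in the whole 300-base promoter, which runs from 250 bases before to 50 bases after the start. It stood there in 19 members (32.8%), against 9.22% of all promoters and 11.2% of the protein-coding ones. It was found in 7 of the 17 lower, in 2 of the 3 higher and in 10 of the 34 members not called. These matches describe letters in a fixed window, and an annotated start can lie some bases from the one used in these cells.

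The libraries of the 2 groups differed in depth without overlap. Mild-hypo-OPC libraries held 4111669 to 9022324 counts and standard OPC libraries 1356079 to 2797513, so depth and condition cannot be told apart. TMM scaling factors, which rest on a weighted trimmed mean of gene log ratios against a reference library, were 1.08 to 1.23 and 0.809 to 0.945. Levels are therefore given as CPM, each gene's count relative to the TMM-scaled library total, and they are not adjusted for transcript length, so that they compare libraries and not genes. OPC markers were at a summed 3726 to 4326 CPM in mild-hypo-OPCs and 3083 to 3827 CPM in standard OPCs, and all 7 of them were tested. Only Gpr17 was called, higher by a log2 fold change of 0.45 ± 0.09 (edgeR adjusted p = 0.000842). It averaged 1324 CPM in mild-hypo-OPCs and 967 CPM in standard OPCs, and the other 6 markers were not called. The summed level of 8 microglial markers was 42.2 to 60.0 CPM against 14.7 to 41.2 CPM and that of 7 neuronal markers 265 to 294 CPM against 172 to 225 CPM, in both cases without overlap. These sums do not hold for every marker. Of 3 tested microglial markers 2 were higher (66.7%, against 7% of all tested genes), while Aif1, untested, averaged 1.87 against 3.13 CPM. Of 5 tested neuronal markers only Tubb3 was higher (20%), at a mean of 98.9 against 59.4 CPM. Map2, the largest part of that sum (134 against 113 CPM), was not called, and Rbfox3, untested, averaged 2.67 against 3.36 CPM. Astrocyte markers summed to 627.5 to 751 CPM against 577 to 644 CPM, and endothelial and mesenchymal markers reached at most 3.2 CPM in any library. The part of these other cells in the results below was not tested. In such bulk RNA, fewer cells of a type and less RNA per cell cannot be told apart.

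Translation factor genes were more often lower than higher in mild-hypo-OPCs. Of the 58 members that passed the filter on low counts, 19 were called lower and 3 higher at an adjusted p-value under 0.05 (edgeR quasi-likelihood test, Benjamini-Hochberg over all 8938 tested genes), and 36 were not called. The lower share was 32.8% of the tested members against 17% of all tested genes, and the higher share was 5.17% against 7%. Their log2 fold changes had a median of −0.16, while the median over all tested genes was 0.00, and 40 of the 58 lay below 0. In 12 members every mild-hypo-OPC library lay below every standard OPC library, which held for 5.4% of all tested genes. Eif4g2 was the 1 member with the opposite separation, seen in 2.94% of all tested genes. The plot of fold changes by family shows that the downward shift was uneven, being deepest among the Eef genes and the eIF3 subunits and absent at the median of the Eif4 family (0.04).

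**Figure D1:**
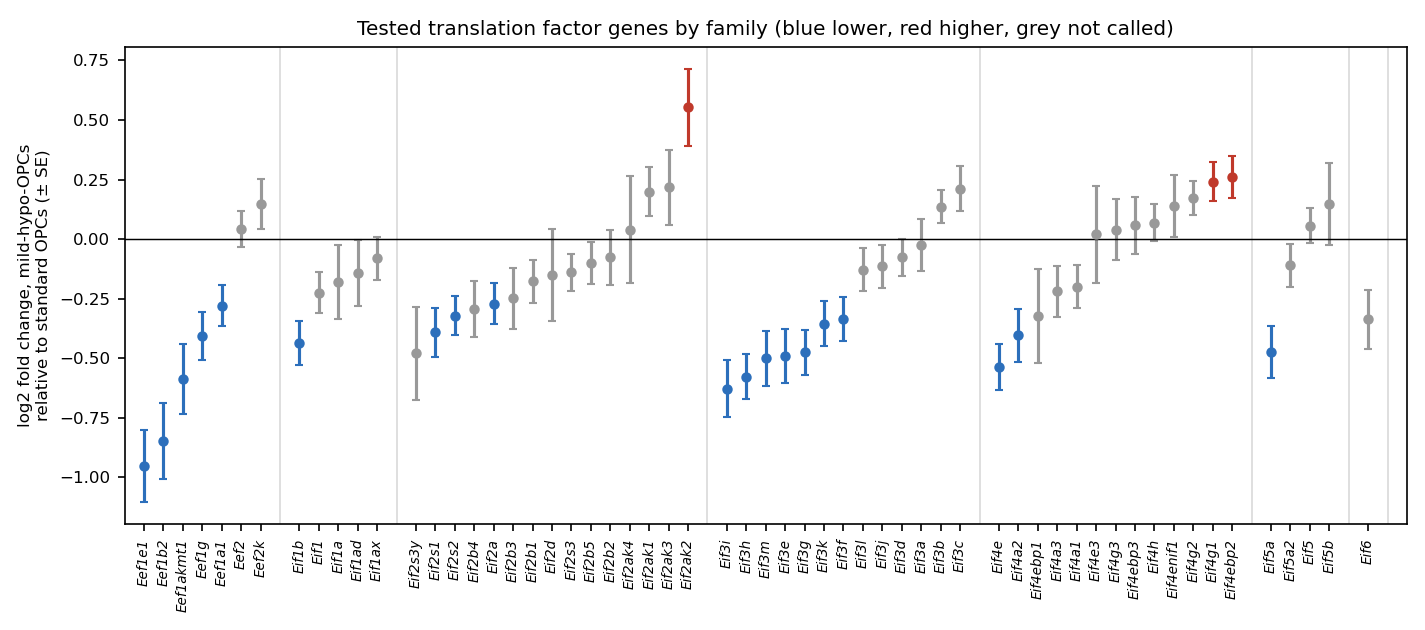
Log2 fold change of each of the 58 tested members in mild-hypo-OPCs relative to standard OPCs, by family from left to right (Eef, Eif1, Eif2, Eif3, Eif4, Eif5, Eif6), with bars for the standard error. Blue points were called lower (19 genes), red points higher (3 genes) and grey points were not called (36 genes), and the values run from −0.95 for Eef1e1 to 0.55 for Eif2ak2.

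The counts of calls differed between depth settings, library subsets and scalings. With the log2 total count as a covariate in edgeR, 0 members were called in either direction (0.481% of all tested genes were lower and 0% higher). The median log2 fold change was then −0.05 for the members, −0.01 for all tested genes and 0.05 for the Eef genes. At an unadjusted edgeR p-value under 0.05 there were 3 lower and 0 higher members. Those 3 were Eif3a, Eif4g3 and Eif5b, at −0.65, −0.54 and −0.86. Without the covariate they were at −0.02, 0.04 and 0.15 and were not called, so none belonged to the 19 lower members. In replicates 1 to 3 of each group the call held for 1 lower member, Eif3h (adjusted p = 0.0499 in edgeR), where 4.01% of all genes were lower and 0.62% higher. Replicates 4 to 6 gave 20 lower and 2 higher members, against 15.7% and 6.48% of all genes. With scaling by library size only, all tested genes shifted to a median of 0.43 and the members to 0.27, and 26 members were then called higher and 2 lower, against 61.7% and 4.53% of all genes. A change of scaling moves all genes by about the same amount, so it leaves the gap between the median member and the median gene about as it is. The depth covariate is not such a change, and the gap was smaller with it. limma-voom and DESeq2 each called 19 members lower and 4 higher, against 16% and 6.37% of all genes in limma-voom and 17% and 8.89% in DESeq2.

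Most tested elongation factor genes were lower, and Eef2 was not. Of 7 tested Eef genes, 5 were lower (71.4%, against 17% of all tested genes) and 0 higher (against 7%), with a median log2 fold change of −0.41. These 7 include 2 genes for enzymes that modify the factors, Eef1akmt1 and Eef2k. They also include Eef1e1, which carries the symbol but encodes a scaffold protein of the multi-tRNA synthetase complex. Of the genes for elongation factors proper, Eef1a1, Eef1b2 and Eef1g were lower and Eef2 was not called. Eef1e1 and Eef1akmt1 were lower as well, and Eef2k was not called. Eef1a1 encodes the GTPase that carries aminoacyl-tRNA to the ribosome. Its level in replicates 1 to 6 was 4932, 4952, 5326, 5222, 4913 and 5439 CPM in mild-hypo-OPCs and 5728, 5557, 5984, 6489, 7210.3 and 6401 CPM in standard OPCs. The groups did not overlap although the change was small, at −0.28 ± 0.09 (log2 fold change ± SE, n = 6 per group, edgeR adjusted p = 0.0233). This call was lost on leaving out any 1 of 6 libraries, namely mild-hypo-OPC replicates 1 to 5 or standard OPC replicate 5, with an adjusted p of up to 0.0878. Processed pseudogenes of Eef1a1 could take part of its reads, and with pseudogene entries summed into their parent gene the change was again −0.28 (edgeR adjusted p = 0.0238). Its paralogue Eef1a2, the form of muscle and neurons, fell short of the filter, as mild-hypo-OPC libraries held 19 to 54 counts of it and standard OPC libraries 1 to 7. Where the filter was dropped or replaced by filterByExpr, Eef1a2 was called higher, at 1.06 ± 0.32 and 1.02 ± 0.30 (edgeR adjusted p = 0.0221 and 0.0187).

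Eef2, the translocase, was level between the groups. It lay at 1944, 1948, 2091, 2253, 2088 and 2217 CPM in mild-hypo-OPCs and at 1978, 2000.0, 1878, 1999.8, 2206 and 2109 CPM in standard OPCs. The groups overlapped over most of their range, and the log2 fold change was 0.04 with a 95% interval of −0.12 to 0.20 (edgeR adjusted p = 0.724). Eef2k, which phosphorylates and inhibits eEF2, was at 31.3 to 37.0 CPM (median 35.6) and 26.8 to 38.0 CPM (median 30.3), a change of 0.15 ± 0.10 that was not called (edgeR adjusted p = 0.324).

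Eef1b2 and Eef1g, which encode subunits of the eEF1B complex that recharges eEF1A with GTP, were lower. No member carried the symbol Eef1d, so this account of the complex covers Eef1b2 and Eef1g only. Eef1b2, a nucleotide exchange subunit, was at 90.1, 111, 118, 114, 103 and 137 CPM in mild-hypo-OPCs and at 135, 129, 211, 202, 271 and 270.2 CPM in standard OPCs. Standard OPC replicates 1 and 2, the deepest of their group, lay below the highest mild-hypo-OPC library, and the other 4 lay above all of them. The log2 fold change was −0.85 ± 0.16 (edgeR adjusted p = 0.000841), so that the level fell by 44.4%. Eef1g, the scaffold subunit, was at 451, 507, 544, 533, 519 and 595 CPM against 576, 616, 645, 709.5, 896 and 741 CPM, and again the ranges met at standard OPC replicate 1. Its change was −0.41 ± 0.10 (edgeR adjusted p = 0.0061).

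Eef1e1 had the largest change of the 58 members that passed the filter. It carries an elongation factor symbol but encodes AIMP3, a scaffold protein of the multi-tRNA synthetase complex. Its level was 32.8, 39.1, 40.0, 36.9, 35.5 and 39.6 CPM in mild-hypo-OPCs and 44.7, 49.1, 82.3, 89.3, 82.0 and 96.2 CPM in standard OPCs. No libraries overlapped, and standard OPC replicates 1 and 2 again lay nearest to the mild-hypo-OPCs. The log2 fold change was −0.95 ± 0.15 (edgeR adjusted p = 0.000275), so that the level fell by 48.3%. It was −0.62 in replicates 1 to 3 (edgeR adjusted p = 0.0703) and −1.25 in replicates 4 to 6 (edgeR adjusted p = 2.18e-07).

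Eef1akmt1, a lysine methyltransferase of eEF1A, was at 8.76, 10.8, 11.9, 9.83, 11.8 and 12.2 CPM in mild-hypo-OPCs and at 14.5, 15.3, 16.1, 12.9, 19.3 and 19.8 CPM in standard OPCs. The groups did not overlap, and the change was −0.59 ± 0.15 (edgeR adjusted p = 0.00679). The other methyltransferases of this family stayed below the filter. Eef1akmt2 had 18 to 44 and 6 to 14 counts, Eef1akmt4 had 19 to 33 and 5 to 15, Eef2kmt had 6 to 10 and 0 to 6, and Eef1akmt3 had 0 counts in every library.

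**Figure D2:**
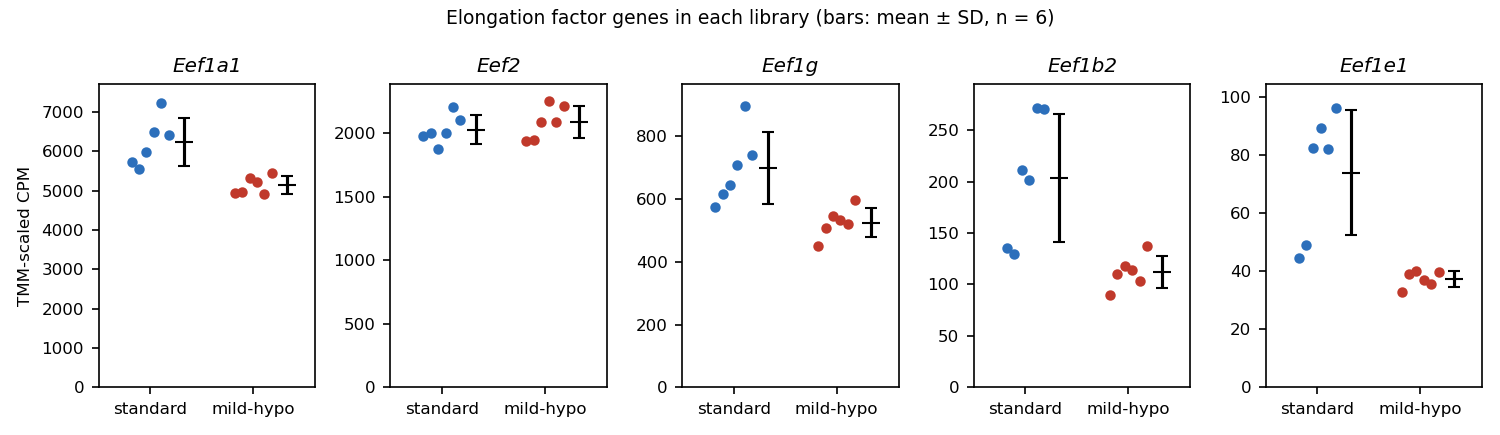
TMM-scaled CPM (vertical axis from 0, one scale per gene) of 5 genes with an Eef symbol, with 1 point per library, standard OPCs in blue and mild-hypo-OPCs in red, and bars for the mean ± SD (n = 6). Eef2 overlaps between the groups, Eef1a1 and Eef1e1 do not, and in Eef1b2 and Eef1e1 the first 2 standard OPC points sit near the mild-hypo-OPC points.

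About as large a share of eIF3 genes as of eIF2 subunit genes was lower. All 13 eIF3 subunit genes were tested, of which 7 were lower (53.8%, against 17% of all tested genes), 0 higher and 6 not called, with a median log2 fold change of −0.34. Of the 4 eIF2 subunit genes, 2 were lower (50%, against 17% of all tested genes) and 0 higher, with a median of −0.36. That share rests on only 4 genes. Eif3i, a WD-repeat subunit bound to eIF3b, was at 79.3, 89.2, 104, 96.5, 103 and 103 CPM in mild-hypo-OPCs and at 115, 111, 151, 178, 189 and 150.4 CPM in standard OPCs. The groups did not overlap, and the change was −0.63 ± 0.12 (edgeR adjusted p = 0.000901). Eif3h, a subunit of the MPN domain class, was at 128, 146, 162, 157, 149 and 159 CPM against 189.6, 189, 215, 259, 253 and 247 CPM. It too separated completely, with a change of −0.58 ± 0.09 (edgeR adjusted p = 0.000283).

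The other 5 lower subunits changed less. Eif3m and Eif3e, both of the PCI domain class, were at 58.3 to 76.7 CPM (median 67.0) against 77.6 to 119.8 CPM (median 91.0), and at 57.4 to 68.1 CPM (median 63.7) against 58.5 to 109.96 CPM (median 93.7). Their changes were −0.50 ± 0.12 and −0.49 ± 0.11 (edgeR adjusted p = 0.00423 and 0.00435), and Eif3e overlapped between the groups through 1 low standard OPC library. Eif3g, an RNA-binding subunit next to eIF3i, was at 65.6 to 84.1 CPM (median 75.5) against 86.0 to 120.6 CPM (median 106.3), a change of −0.47 ± 0.09 without overlap (edgeR adjusted p = 0.00135). Eif3k and Eif3f, at −0.35 ± 0.09 and −0.34 ± 0.09, both overlapped between the groups (edgeR adjusted p = 0.00916 and 0.0116). The call on Eif3f was lost without mild-hypo-OPC replicate 5 (edgeR adjusted p = 0.0523).

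The large core subunits of eIF3 did not share this shift. Eif3a, the largest scaffold, was at 190.6 to 298 CPM (median 219) and 188.6 to 258 CPM (median 238.5), a log2 fold change of −0.02 ± 0.11. Eif3b was at 124 to 130.3 CPM (median 127) against 108 to 126 CPM (median 116.5), and Eif3c at 232 to 264 CPM (median 246) against 182 to 257 CPM (median 193). Their values of 0.14 ± 0.07 and 0.21 ± 0.09 lay above 0 and were not called (edgeR adjusted p = 0.156 and 0.108). With upper-quartile factors both were called higher (edgeR adjusted p = 0.0355 and 0.0397), and Eif3c was also called higher in replicates 4 to 6 (0.36, edgeR adjusted p = 0.019) and without standard OPC replicate 1 or 2 (edgeR adjusted p = 0.0276 and 0.0312). Library size only called both higher as well, and with the depth covariate Eif3c was at −0.15. Eif3d, Eif3j and Eif3l, a cap-contacting, a loosely attached and a PCI subunit, had values of −0.08, −0.11 and −0.13 and were not called either. The plot of eIF3 subunits shows this order, with the mild-hypo-OPC libraries below the standard OPC libraries on the left and mixed with or above them on the right.

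**Figure D3:**
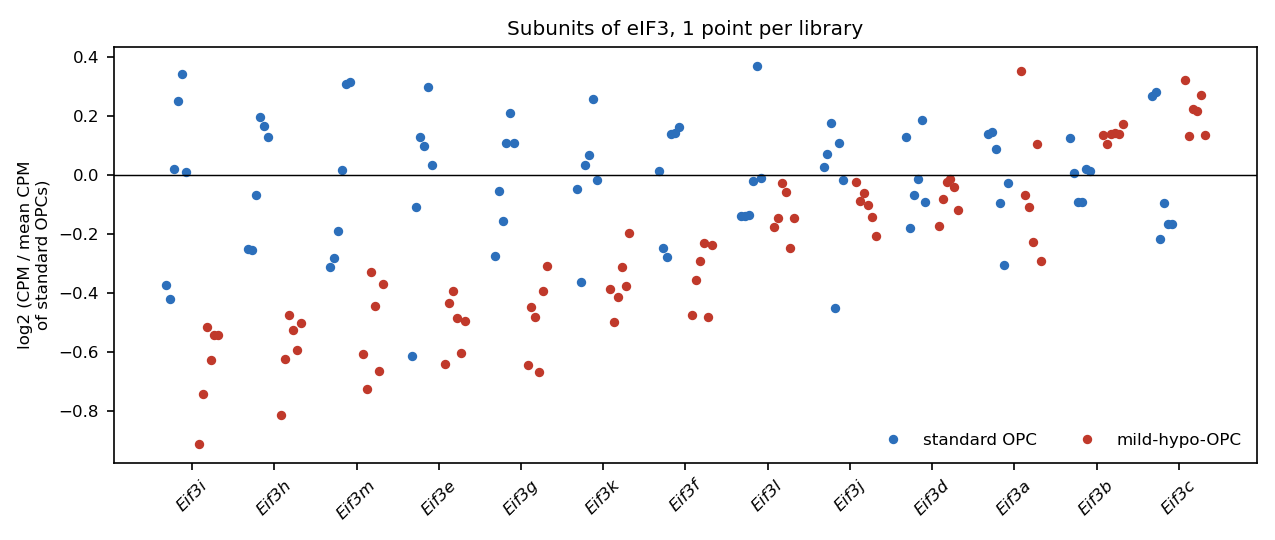
Log2 ratio of each library's TMM-scaled CPM to the mean of the 6 standard OPC libraries, for the 13 eIF3 subunit genes ordered by fold change. Blue points are standard OPCs and red points mild-hypo-OPCs, 1 per library, and the red points lie below the blue at Eif3i and Eif3h and overlap them or lie higher from Eif3l to Eif3c.

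The eIF2 branch, through which stress signals act on initiation, was mostly not called. Among its 15 members 3 were lower, 1 was higher and 11 were not called, shares of 20% and 6.67% that lie near the 17% and 7% of all tested genes. Eif2s1, the alpha subunit that is the target of the stress kinases, was at 56.1 to 75.8 CPM (median 67.9) against 74.2 to 112 CPM (median 88.3), a change of −0.39 ± 0.10 (edgeR adjusted p = 0.00929). Eif2s2, the beta subunit, was at 113 to 126 CPM (median 120.1) against 129.6 to 181 CPM (median 144), or −0.32 ± 0.08 without overlap (edgeR adjusted p = 0.00764). The gamma subunit Eif2s3 was at 127 to 144 CPM (median 135) against 128 to 174 CPM (median 147) and was not called, at −0.14 ± 0.08 (edgeR adjusted p = 0.209). Its Y-linked paralogue Eif2s3y was at 8.24 to 9.15 CPM against 6.87 to 17.99 CPM and was not called at −0.48 ± 0.20 (edgeR adjusted p = 0.0804). Eif2a, which despite its symbol is not an eIF2 subunit but a separate initiator tRNA-binding factor, was at 32.9 to 39.3 CPM (median 37.2) against 40.0 to 49.7 CPM (median 43.2), without overlap. It was lower by a call that did not hold in 8 of the 12 fits with 1 library left out (−0.27 ± 0.09, edgeR adjusted p = 0.0284, and up to 0.103 when a library was left out). Those fits left out any 1 mild-hypo-OPC library, or standard OPC replicate 1 or 6. Eif2d, a factor of non-canonical initiation, was not called at −0.15 ± 0.19.

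None of the 5 subunits of eIF2B, the exchange factor that recycles eIF2 and whose mutations cause vanishing white matter disease, was called. Their log2 fold changes were all below 0 in this fit, from −0.29 for Eif2b4 (edgeR adjusted p = 0.0729) to −0.08 for Eif2b2, and all 5 lay above 0 when libraries were scaled by size only. The 4 eIF2 kinases lay above 0 in this fit, with 1 of them called higher (25%, against 7% of all tested genes). This was Eif2ak2 (PKR), which senses double-stranded RNA, at 14.8, 12.8, 14.4, 13.3, 15.6 and 14.7 CPM in mild-hypo-OPCs and 7.26, 13.2, 11.1, 11.96, 6.66 and 9.16 CPM in standard OPCs. The groups overlapped at 1 standard OPC library, whose level of 13.2 CPM exceeded 1 mild-hypo-OPC library. Its change of 0.55 ± 0.16 (edgeR adjusted p = 0.0176) rested on 10 to 25 counts per standard OPC library, and the call was lost without standard OPC replicate 1 (edgeR adjusted p = 0.0575). Eif2ak1 (HRI), Eif2ak3 (PERK, the kinase of endoplasmic reticulum stress) and Eif2ak4 (GCN2, the kinase of amino acid shortage) had values of 0.20 ± 0.10, 0.22 ± 0.16 and 0.04 ± 0.22 and were not called. With the log2 total count as a covariate they lay below 0, at −0.16, −0.21 and −0.39, while Eif2ak2 was at 0.50, all without a call.

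The eIF4 factors, which recognise the cap, moved in both directions. Of 13 tested Eif4 genes, 2 were higher, 2 lower and 9 not called, so that the lower share of 15.4% lay near the 17% of all tested genes and the higher share of 15.4%, against 7%, rested on 2 genes. Eif4e encodes the cap-binding protein, and it lay at 127, 128, 137, 118, 119.6 and 137 CPM in mild-hypo-OPCs and at 179.7, 149.99, 171, 183, 246 and 185 CPM in standard OPCs. The groups did not overlap, and the change was −0.54 ± 0.10 (edgeR adjusted p = 0.000594), so that the level fell by 31.1%. Eif4g1, the scaffold that joins eIF4E to eIF3 and to the helicase, was at 383, 339, 327, 353, 375 and 293 CPM against 318, 304, 296, 272, 253 and 304 CPM. It was higher by 0.24 ± 0.08 (edgeR adjusted p = 0.0402), with overlap between the groups. Eif4ebp2, an eIF4E-binding repressor abundant in brain, was at 100.2, 87.6, 89.1, 97.3, 91.6 and 99.2 CPM against 88.3, 85.0, 80.1, 77.3, 58.6 and 79.4 CPM. It was higher by 0.26 ± 0.09 (edgeR adjusted p = 0.0399), and 1 standard OPC library reached into the mild-hypo-OPC range. The calls on Eif4g1 and on Eif4ebp2 were each lost on leaving out any 1 of 6 libraries, among them mild-hypo-OPC replicate 1 and standard OPC replicates 3 to 6 for both, mild-hypo-OPC replicate 5 for Eif4g1 and replicate 4 for Eif4ebp2. The adjusted p then reached 0.0874 and 0.0867 in edgeR, and summing pseudogene entries into their parent gene took Eif4g1 to 0.0573.

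The helicase paralogues did not all pass the test. Eif4a2 was at 107 to 129 CPM (median 113) against 112 to 183.5 CPM (median 163), and it was lower by a log2 fold change of −0.40 ± 0.11 (edgeR adjusted p = 0.0118). Its standard OPC replicates 1 and 2 lay within the mild-hypo-OPC range. Eif4a1 was at 529 to 636 CPM (median 599) against 577 to 844 CPM (median 675) and was not called at −0.20 ± 0.09 (edgeR adjusted p = 0.114), nor was Eif4a3, a core protein of the exon junction complex, at −0.22 ± 0.11 (edgeR adjusted p = 0.148). Whether the 3 paralogues differed from each other was not tested.

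Eif4g2 (DAP5), a scaffold that lacks the eIF4E-binding site and serves cap-independent initiation, was at 884 to 995 CPM (median 904) against 754 to 880.2 CPM (median 801). Every mild-hypo-OPC library lay above every standard OPC library, yet the change of 0.17 ± 0.07 was not called by edgeR (adjusted p = 0.0921), while limma-voom and DESeq2 called it higher. Eif4g3, Eif4h, Eif4e3, Eif4enif1, Eif4ebp1 and Eif4ebp3 were not called, with log2 fold changes from −0.32 for Eif4ebp1 to 0.14 for Eif4enif1. No member carried the symbol Eif4b or Eif4e2, so the Eif4 counts leave these genes out. Eif4ebp1, the repressor best known as an mTOR target, rested on 11 to 21 counts per standard OPC library.

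Among the remaining factors, 1 of 5 Eif1 genes and 1 of 5 Eif5 and Eif6 genes were lower. Each share of 20% lay near the 17% of all tested genes, and 0 were higher (against 7%). Eif5a, the hypusine-bearing factor that helps ribosomes through difficult peptide bonds, was at 604 to 772 CPM (median 692) in mild-hypo-OPCs and at 777 to 1227 CPM (median 894.5) in standard OPCs. The groups did not overlap and the change was −0.47 ± 0.11 (edgeR adjusted p = 0.00415). Its paralogue Eif5a2 was at 40.8 to 44.5 CPM (median 41.5) against 38.7 to 52.8 CPM (median 43.6) and was not called at −0.11 ± 0.09 (edgeR adjusted p = 0.405). Eif1b, a paralogue of the start codon selection factor eIF1, was at 33.7 to 37.8 CPM (median 35.9) against 38.6 to 56.0 CPM (median 49.8), a change of −0.44 ± 0.09 without overlap (edgeR adjusted p = 0.00223). Eif1 itself was at −0.22 ± 0.09 and was not called (edgeR adjusted p = 0.0654), and Eif1a, Eif1ax and Eif1ad were at −0.18, −0.08 and −0.14. Eif5, the GTPase activator of eIF2, and Eif5b, the factor of subunit joining, were at 0.06 ± 0.07 and 0.15 ± 0.17. Eif6, which keeps the large ribosomal subunit apart from the small one until it is needed, was at −0.34 ± 0.12 (edgeR adjusted p = 0.0535).

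Ratios of counts of 2 genes within a library do not depend on the scaling factors, and the pairs below were chosen after the values were seen. Eef1a1 over Eef2 was 2.32 to 2.55 in mild-hypo-OPCs (median 2.50) and 2.78 to 3.27 in standard OPCs (median 3.11), without overlap. Eef1e1 over Eef2 was 0.0164 to 0.0201 against 0.0226 to 0.0456, and in standard OPCs the values of 0.0226 and 0.0246 belonged to replicates 1 and 2 while replicates 3 to 6 lay between 0.0372 and 0.0456. Eif3h over Eif3c was 0.485 to 0.686 against 0.735 to 1.34, and Eif3i over Eif3b was 0.623 to 0.819 against 0.912 to 1.64. In both, standard OPC replicates 1 and 2 were the lowest of their group. Eif4e over its scaffold Eif4g1 was 0.319 to 0.466 against 0.494 to 0.971, and Eif4e over its repressor Eif4ebp2 was 1.21 to 1.54 (median 1.34) against 1.76 to 4.19 (median 2.23). These last pairs set a gene called lower against genes called higher, so the choice of pairs itself favours separation.

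Other ratios overlapped between the groups. Eef1b2 over Eef1g was 0.199 to 0.23 against 0.21 to 0.365, Eif4a1 over Eif4a2 was 4.56 to 5.96 against 3.36 to 5.41, and Eif5a over Eif5a2 was 14.4 to 18.9 against 15.9 to 29.7. Eif2s1 over Eif2s3 was 0.413 to 0.562 against 0.526 to 0.667, and Eif4g1 over Eif4g2 was 0.332 to 0.4 against 0.329 to 0.403. The summed Eef counts over the summed Eif counts were 1.2 to 1.36 against 1.27 to 1.4, so the 2 sums did not separate the groups. The members together took 1.46% to 1.72% of the unscaled total in mild-hypo-OPC libraries and 1.24% to 1.66% in standard OPC libraries, with overlap.

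**Figure D4:**
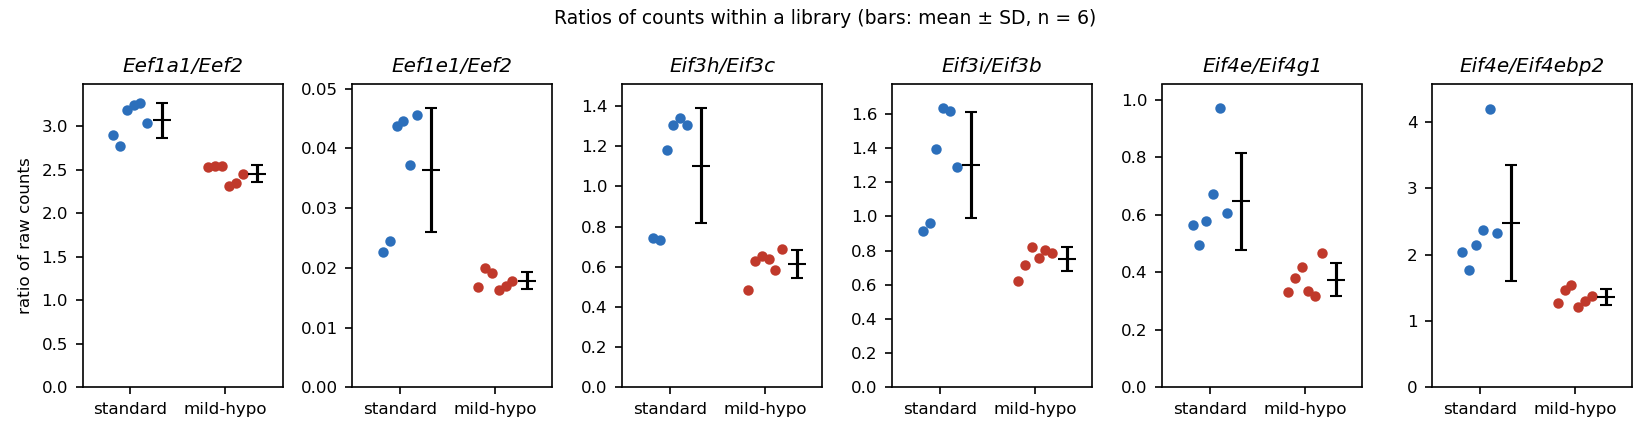
Ratio of the raw counts of 2 genes in each library (vertical axis from 0, one scale per pair), standard OPCs in blue and mild-hypo-OPCs in red, with bars for the mean ± SD (n = 6). In all 6 pairs shown the mild-hypo-OPC points lie below the standard OPC points, for example 1.21 to 1.54 against 1.76 to 4.19 for Eif4e over Eif4ebp2.

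Within the standard OPCs most of the lower members were also lowest in the deepest libraries, though they did not follow depth throughout. Replicates 1 and 2, the deepest, held the 2 lowest standard OPC levels of Eef1a1, Eef1b2, Eef1e1, Eef1g, Eif1b, Eif2s1 and Eif3e. The same held for Eif3h, Eif3i, Eif3k, Eif3m, Eif4a2 and Eif5a. It did not hold for the other lower members, Eef1akmt1, Eif2a, Eif2s2, Eif3f, Eif3g and Eif4e. The deepest standard OPC libraries, replicates 1 and 2, had the lowest Eef1e1 levels of their group, 44.7 and 49.1 CPM, and the lowest Eif3h levels, 189.6 and 189 CPM, whereas replicates 4 to 6, the shallowest, held 82.0 to 96.2 CPM of Eef1e1 and 247 to 259 CPM of Eif3h. Replicate 3 had nearly the depth of replicate 2 (2240615 and 2295080 counts), yet it held 82.3 CPM of Eef1e1 and 215 CPM of Eif3h. Thinning every library to the smallest total left 13 lower and 1 higher members, against 11.1% and 5.5% of all genes. Among these Eef1e1 was at −0.88 (edgeR adjusted p = 0.000349) and Eif3h at −0.50 (edgeR adjusted p = 0.00153). With the log2 total count as a covariate the values were −0.17 for Eef1e1 and −0.04 for Eif3h (edgeR adjusted p = 0.942 and 0.997).

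**Figure D5:**
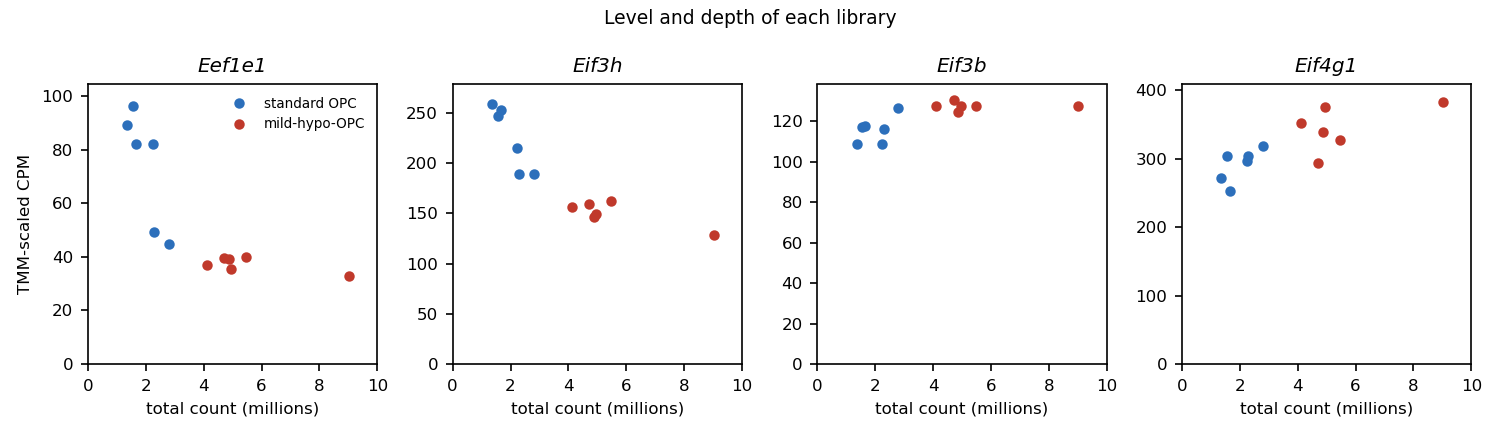
TMM-scaled CPM of 4 members (vertical axis from 0) against the total count of each library, standard OPCs in blue and mild-hypo-OPCs in red. Within the standard OPCs Eef1e1 and Eif3h are lowest in the 2 deepest libraries, and no standard OPC library reaches the depth of 4111669 counts of the shallowest mild-hypo-OPC library.

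Compared with the ribosomal protein genes, the other large group of the translation machinery, fewer factors were called lower. All 79 tested cytosolic ribosomal protein genes were lower, with a median log2 fold change of −0.95 and a range from −1.74 to −0.30, and in 48 of them the groups did not overlap. The difference between the lists was not tested. Of 35 tested further genes of translation, 6 were lower and 3 higher, shares of 17.1% and 8.57% that lie near the 17% and 7% of all tested genes, and their median was 0.04. The 6 release and recycling factors, among them Etf1 and the recycling ATPase Abce1, had 0 calls and a median of 0.08. In the list of enzymes that modify eEF2 and eIF5A, 3 of 6 tested genes were lower (50%, against 17% of all tested genes). Dnajc24, a gene of diphthamide synthesis on eEF2, had the largest change at −0.99 ± 0.33 (edgeR adjusted p = 0.0342), with no more than 27 counts in any library. Dhps and Dohh, the enzymes that make the hypusine of eIF5A, were both lower like Eif5a, at −0.47 ± 0.11 and −0.38 ± 0.12 (edgeR adjusted p = 0.00377 and 0.0283). Among 14 partners of the cap and poly(A) tail 3 were lower (21.4%, near the 17% of all tested genes), the largest changes being those of Paip2 at −0.77 ± 0.18 and Paip1 at −0.50 ± 0.08 (edgeR adjusted p = 0.00458 and 0.000323). Both bind the poly(A)-binding protein, Paip1 as an activator and Paip2 as a repressor of translation, and that protein's gene Pabpc1 was not called at 0.18 ± 0.08. Of 6 tested mitochondrial translation factors 2 were higher (33.3%, against 7% of all tested genes) and 0 lower (against 17%). Gfm2 was at 0.45 ± 0.15 (edgeR adjusted p = 0.0361).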

How the data were processed

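Libraries kept the strand of the RNA and were read as pairs. By the study's methods the authors used Trimmomatic 0.36 for trimming, FastQC 0.11.9 for quality, STAR 2.7.9a for alignment (mRatBN7.2) and RSEM 1.3.3 for gene levels. The deposited values are whole counts for each Ensembl gene, not normalized, and how RSEM's estimates were made whole is not given in the sources used here. All 12 columns were used (0 left out), and groups came from the sample labels. In R 4.3.3 the filter kept 8938 genes that exceeded a CPM of 10 in 1 or more libraries, libraries were scaled by TMM, and all kept genes were fitted in edgeR 4.0.16 (glmQLFit, glmQLFTest) on condition alone. Calls use a Benjamini-Hochberg adjusted p under 0.05, and standard errors derive from the F statistic. limma 3.58.1 (voom, the test of the study), DESeq2 1.42.0, other scalings, filters, library subsets, thinning, a depth covariate and a replicate block were alternatives. Members and comparison lists were chosen with earlier results of these data known. Named were every called member, the subunits of eEF1, eEF2, eIF2, eIF3 and eIF4F, their paralogue sets, the eIF2 kinases and Eef2k, and of the other lists up to 3 called genes with the largest change, plus Dhps, Dohh and a few uncalled genes picked after their values were seen. Within groups, no 2 libraries agreed within sampling noise (chi-square per degree of freedom 3.39 to 21.4), and all 12 were counted. Scripts were tested on simulated data. Promoters came from RefSeq (GRCr8). Of the start windows only those shown are printed here, and the word counts cover every member with a promoter entry. Figures were drawn with matplotlib 3.10.9.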

Additional observations from a re-analysis of the deposited data

Results flagged for a closer look

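In 6 of 116 member and group combinations, 1 library stood apart from the other 5 by Dixon's criterion, a number near the 1 in 20 that chance gives, and each of these libraries was a standard OPC library. Replicate 5 was the highest for Eif4e at 245.9 CPM (others 149.99 to 185 CPM) and for Eif3l at 230.6 CPM (others 162 to 177 CPM), and the lowest for Eif4ebp2 at 58.6 CPM (others 77.3 to 88.3 CPM). Replicate 6 was the highest for Eif1ad at 32.1 CPM (others 16.7 to 21.1 CPM). Replicate 4 was the lowest for Eif3j at 49.7 CPM (others 67.2 to 76.7 CPM). Replicate 2 was the highest for Eif4enif1 at 40.1 CPM (others 22.1 to 28.4 CPM). Of these genes, Eif4e and Eif4ebp2 were called. Eif4e stayed called with any library left out, and Eif4ebp2 did not, standard OPC replicate 5 being 1 of the 6 libraries without which its call was lost.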

How the results depend on the processing

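Beside 19 lower and 3 higher members, limma-voom and DESeq2 each gave 19 and 4, filterByExpr 19 and 4 (14.8% and 5.77% of all genes), a minimum of 10 counts in every library 19 and 3 (18.5% and 8.43%), no filter 17 and 4 (8.72% and 4.22%), and pseudogene entries summed into their parent gene 19 and 2 (16.8% and 6.86%). Upper-quartile factors gave 17 lower and 6 higher (14% and 12.7%), thinning 13 and 1 (11.1% and 5.5%). With library size only, 2 were lower and 26 higher, with 2 lower among the Eef genes and 0 among the Eif2, Eif3 and Eif4 genes, and the median of all genes moved to 0.43. In replicates 1 to 3, 1 was lower and 0 higher (11 and 0 at an unadjusted p under 0.05), with 0 lower Eef genes and 1 lower among Eif2, Eif3 and Eif4. With the log2 total count as a covariate all 4 counts were 0. Leaving out 1 library gave 16 to 23 lower and 1 to 4 higher, and 16 of the 22 called members kept the call in all 12 such fits. The replicate block gave 18 lower and 2 higher (16.5% and 6.4%), Eif2a and Eif4g1 losing the call. The numbers were not shown to pair libraries, as deviations of same-numbered libraries correlated from −0.287 to 0.309. At number 1 alone did the mild-hypo-OPC library correlate best with the standard OPC library of its own number. Signs turned, with a call before or after, with library size only for Eef1a1 (0.16), Eef1g (0.034), Eif1ax (0.35), Eif2a (0.16), Eif2b1 (0.26), Eif2b2 (0.35), Eif2b5 (0.33), Eif2s1 (0.044), Eif2s2 (0.11), Eif2s3 (0.30), Eif3a (0.41), Eif3d (0.36), Eif3f (0.10), Eif3j (0.32), Eif3k (0.080), Eif3l (0.31), Eif4a2 (0.039) and Eif5a2 (0.33). With the depth covariate they turned for Eef1b2 (0.051), Eef1g (0.10), Eif3f (0.012), Eif3i (0.037), Eif4g1 (−0.025) and Eif5a (0.10). In 68 further pairs of member and setting the sign changed without a call in either. The causes were not tested. Standard OPC totals of 1356079 to 2797513 counts limit the precision for low members such as Eif2ak2.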
